A study of Mus musculus with 16 samples.

Results

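The RNA levels of 9 genes of the tendon and of the junction between muscle and tendon were followed in tibialis anterior muscle of WT and UBR4 mKO mice. The genes were chosen by symbol, as a list of tendon-matrix genes, from the 47643 gene symbols of the expression table: Tnmd, Thbs4, Comp, Fmod, Chad, Scx, Mkx, Kera and Cilp2. UBR4 is a ubiquitin ligase. The 16 samples form 4 groups of 4, namely WT and UBR4 mKO at 6 months and WT and UBR4 mKO at 24 months, all labelled as muscle of male C57BL6/J mice. All mice carried Ubr4 alleles flanked by loxP sites on both chromosomes and all received tamoxifen, including the WT controls. UBR4 mKO mice also carried an inducible Cre recombinase driven by the promoter of ACTA1, the actin gene of skeletal myofibers, and WT mice carried no Cre. Recombination was therefore directed at myofibers, whereas the RNA came from the homogenized muscle with every other cell in it.

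Tendon is a tissue of parallel collagen fibrils made by tenocytes, and at the myotendinous junction myofibers pull on those fibrils through a specialized basement membrane. The transcription factors Scx and Mkx direct tenocyte identity, and Tnmd, a membrane glycoprotein, is a classical marker of mature tenocytes. Fmod, Kera and Chad belong to the leucine-rich repeat proteins that bind collagen and shape its fibrils. Thbs4 and Comp are pentameric thrombospondins that join collagen to cells and to other matrix proteins, and Thbs4 is enriched at the junction. Cilp2 is a secreted cartilage intermediate layer protein found in dense connective tissue.

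Values are TPM, the relative abundance of a transcript among all transcripts of its library, and are scaled by transcript length, so that levels can be compared between genes within a sample. The sequencing depth behind each TPM is unknown, and no counting error can be given for the lowest values. Ubr4 itself stood at 12.2 ± 2.82 TPM (SD, n = 4) in WT and 5.49 ± 0.749 TPM in UBR4 mKO at 6 months, and at 18.3 ± 1.89 against 9.14 ± 4.33 TPM at 24 months, without overlap at either age. The log2 difference was -1.12 at both ages (SE 0.26), with a limma adjusted p of 0.00365 at 6 months and of 0.0598 at 24 months. The muscle label was borne out by 8 myofiber markers such as Acta1 and Ckm, whose summed level was 74288 to 106473 TPM in every library. Cartilage markers summed to 0.401 to 1.70 TPM and bone markers to 0.294 to 4.19 TPM. The sex label was met in the 24-month libraries, where Xist, the RNA of the inactive X chromosome of female cells, was at most 0.0252 TPM and the Y-linked Ddx3y at least 13.5 TPM. In the 8 libraries of 6 months Xist ranged from 0.711 to 23.8 TPM and Ddx3y from 0.0730 to 22.6 TPM. The library labelled 6-month UBR4 mKO replicate 4 held the 23.8 TPM of Xist and the 0.0730 TPM of Ddx3y. Pooled, mislabelled or mixed libraries cannot be told apart from these values, so that each mean, SD and n at 6 months is that of 4 libraries, not surely of 4 male mice. Every contrast of age therefore also sets libraries with Xist against libraries almost without it, and the part of this in the results was not tested. Age and any handling batch that followed age cannot be told apart either.

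Among the 9 genes, 8 passed the filter of a mean of at least 1 TPM over the 16 samples and were tested in a limma fit across 10628 genes. Mkx, with a mean of 0.399 TPM, did not pass and was tested alone. Thbs4 was the most abundant at a mean of 60.1 TPM, followed by Fmod at 40.8 TPM. Tnmd, Chad, Comp, Scx and Kera had means between 4.33 and 9.85 TPM, and Cilp2 of 1.47 TPM.

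The plainest change lay between the ages in UBR4 mKO muscle. There 6 of the 8 tested genes were lower at 24 than at 6 months at a limma adjusted p under 0.05: Cilp2, Tnmd, Thbs4, Fmod, Kera and Chad. Over all genes tested, 6.29% were called in that comparison and 3.85% were called lower. In WT muscle only Cilp2 was called between the ages, lower at 24 months, beside 25.1% of all genes called and 1.07% called lower. Between genotypes, only Thbs4 was called at 6 months, higher in UBR4 mKO, beside 44.9% of all genes, and none of the 8 was called at 24 months, beside 0.63% of all genes. None was called for the interaction of genotype and age, beside 4.7% of all genes. At an unadjusted limma threshold of 0.05, 2 of the 8 passed between genotypes at 24 months (Chad and Fmod), beside 10.1% of all genes, and 3 for the interaction (Thbs4, Tnmd and Fmod), beside 31.0% of all genes. Dunn's test called 0 of the 8 in each of the 4 comparisons between groups, beside 23.4% of all genes between genotypes at 6 months and 0% in the other three.

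The median log2 fold change of the 8 tested genes was 0.31 for UBR4 mKO against WT at 6 months, close to the median of 0.33 over all genes. For the same contrast at 24 months it was -0.62 against 0.013 over all genes. For 24 against 6 months it was -0.46 in WT against 0.26 over all genes, and -1.44 in UBR4 mKO against -0.043 over all genes. Mitochondrially encoded genes took 46.1% to 59.7% of the TPM of a library, which bears on the level of every other gene. When libraries were rescaled by median-of-ratios factors, the median over all genes at 6 months moved from 0.33 to -0.018, and the genes called higher and lower went from 4645 and 122 to 708 and 1082. In WT between ages that median moved from 0.26 to -0.0042 and the calls from 2555 higher and 114 lower to 472 and 566. For the interaction it moved from -0.31 to 0.013, with 13 higher and 487 lower becoming 108 and 103. In UBR4 mKO between ages it moved only from -0.043 to 0.014, while 260 higher and 409 lower became 634 and 563, and all 6 genes named above were still called lower.

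**Figure D1:**
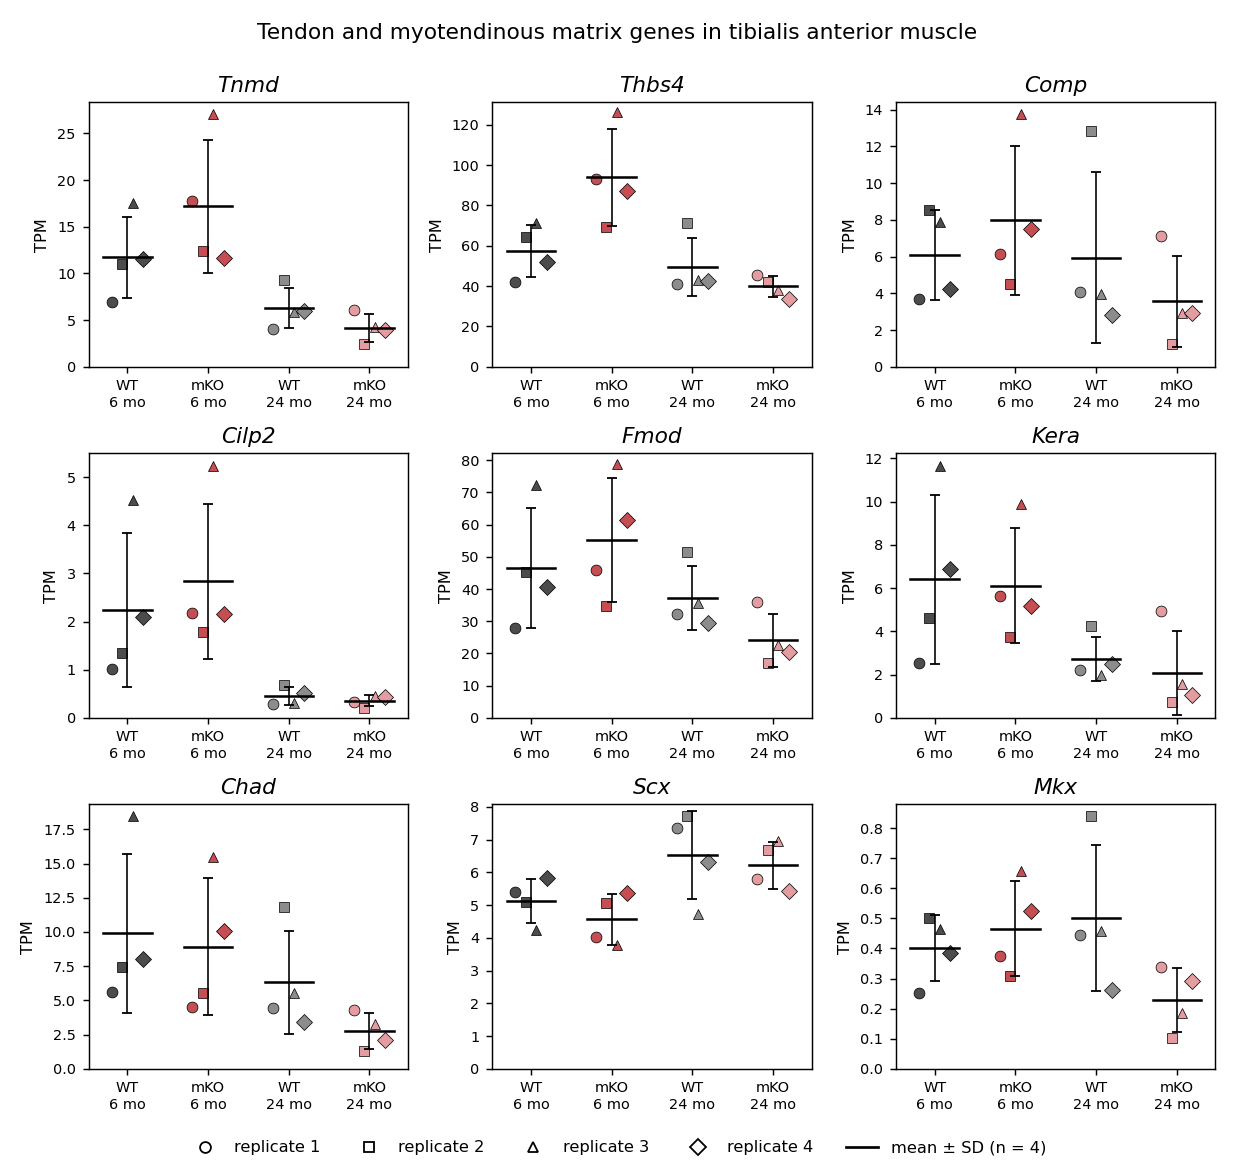
TPM of each gene (vertical axes, linear from 0) in the 4 groups, with 1 point per sample, shapes for the replicate number, and bars for the mean ± SD (n = 4). Cilp2, Tnmd and Thbs4 were lower in every 24-month UBR4 mKO sample than in any 6-month UBR4 mKO sample, and Scx was higher.

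Scx was the gene least like the rest. It is a basic helix-loop-helix factor encoded at chr15:76457452-76459458 on the plus strand of GRCm38, and had 5.40, 5.08, 4.23 and 5.82 TPM in 6-month WT and 4.02, 5.07, 3.78 and 5.38 TPM in 6-month UBR4 mKO. At 24 months it had 7.36, 7.73, 4.74 and 6.31 TPM in WT and 5.80, 6.68, 6.96 and 5.43 TPM in UBR4 mKO. Thus Scx was the steadiest of the genes, and in UBR4 mKO every 24-month sample lay above every 6-month sample. The log2 difference between ages was 0.45 in UBR4 mKO (SE 0.16, limma adjusted p = 0.113) and 0.33 in WT (SE 0.16, limma adjusted p = 0.119), neither of them called. Leaving out 24-month WT replicate 3 brought the WT difference to 0.47 with a limma adjusted p of 0.0363. Scx lies within Bop1, a gene of ribosome assembly on the opposite strand, with none of its 2007 exonic bases shared with a Bop1 exon. Bop1 had 11.4 ± 0.994, 13.5 ± 0.468, 16.1 ± 1.99 and 15.1 ± 2.09 TPM in 6-month WT, 6-month UBR4 mKO, 24-month WT and 24-month UBR4 mKO (SD, n = 4), and its part in the Scx values was not tested.

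Mkx, a homeobox factor, was low in all samples. It had 0.254, 0.502, 0.463 and 0.386 TPM in 6-month WT and 0.374, 0.308, 0.658 and 0.524 TPM in 6-month UBR4 mKO. The 24-month values were 0.444, 0.842, 0.457 and 0.263 TPM in WT and 0.338, 0.102, 0.185 and 0.290 TPM in UBR4 mKO. All group ranges overlapped. The log2 difference of UBR4 mKO from WT was 0.16 at 6 months (exact permutation test, two-sided, p = 0.543) and -0.85 at 24 months (exact permutation p = 0.0857). That of 24 from 6 months was 0.21 in WT (exact permutation p = 0.571) and -0.80 in UBR4 mKO (exact permutation p = 0.0571), where 0.0286 is the smallest p that 4 against 4 samples allow. Mkx shares 201 of its 4095 exonic bases with AC148004.2, a transcript of the same strand, so reads there can be split.

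Tnmd (chrX:133850980-133865577, plus strand) had 6.96, 11.0, 17.5 and 11.5 TPM in 6-month WT and 17.8, 12.4, 27.1 and 11.6 TPM in 6-month UBR4 mKO. Older samples had 4.07, 9.26, 5.83 and 5.97 TPM in WT and 6.06, 2.40, 4.30 and 3.90 TPM in UBR4 mKO. The 2 ages did not overlap in UBR4 mKO, and in WT 3 of the 4 older samples lay below every younger one. In UBR4 mKO the mean fell 4.14-fold with age, from 17.2 ± 7.12 to 4.16 ± 1.51 TPM (SD, n = 4), a log2 change of -2.01 (SE 0.32, limma adjusted p = 0.00108). In WT the log2 difference was -0.88 (SE 0.32, limma adjusted p = 0.0531), just outside the threshold. It passed when 6-month WT replicate 1 was left out (-1.10, limma adjusted p = 0.0309), and under 9 of the alternatives in all. The genotypes differed by 0.54 at 6 months (SE 0.32, limma adjusted p = 0.168) and -0.60 at 24 months (SE 0.32, limma adjusted p = 0.585), neither called.

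Thbs4 (chr13:92751590-92794818, minus strand) had 41.9, 64.2, 71.4 and 52.0 TPM in 6-month WT and 92.9, 69.1, 126 and 87.0 TPM in 6-month UBR4 mKO. At 24 months it had 41.1, 71.1, 42.8 and 42.7 TPM in WT and 45.6, 42.1, 38.1 and 33.5 TPM in UBR4 mKO. The young UBR4 mKO samples were the highest group, and 3 of the 4 exceeded every young WT sample. The log2 difference at 6 months was 0.71 (SE 0.20, limma adjusted p = 0.0115), or 93.9 ± 23.9 against 57.4 ± 13.0 TPM (SD, n = 4). This call depended on the scaling, with 0.35 (limma adjusted p = 0.270) after median-of-ratios scaling and 0.45 (limma adjusted p = 0.165) with mitochondrially encoded genes left out. With age Thbs4 fell 2.36-fold in UBR4 mKO, without overlap (log2 change -1.21, SE 0.20, limma adjusted p = 0.00146). In WT it differed by -0.22 between the ages (SE 0.20, limma adjusted p = 0.372). The test of the difference between these changes gave -0.98 (SE 0.28, limma adjusted p = 0.0549), the nearest to a call among the genes. It passed without 6-month WT replicate 2 (-1.05, limma adjusted p = 0.0286), without 6-month UBR4 mKO replicate 2 (-1.12, limma adjusted p = 0.0468) and with array weights (-0.94, limma adjusted p = 0.0312). The interaction calls over all genes were 2491, 248 and 2861 under these settings against 500 in the fit of all samples.

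Comp (chr8:70373558-70382066, plus strand), the other pentameric thrombospondin here, had 3.70, 8.52, 7.88 and 4.26 TPM in 6-month WT and 6.14, 4.50, 13.8 and 7.51 TPM in 6-month UBR4 mKO. Older samples had 4.09, 12.9, 3.95 and 2.81 TPM in WT and 7.10, 1.26, 2.94 and 2.96 TPM in UBR4 mKO. One sample of each older group, WT replicate 2 and UBR4 mKO replicate 1, stood well above the other three, and no comparison was called. The largest difference was -1.26 between ages in UBR4 mKO (SE 0.49, limma adjusted p = 0.149). Without 24-month UBR4 mKO replicate 1 it was -1.67 (limma adjusted p = 0.0465).

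Fmod (chr1:134037254-134048277, plus strand), which regulates the width of collagen fibrils, had 27.9, 45.2, 72.3 and 40.6 TPM in 6-month WT and 45.8, 34.8, 78.9 and 61.4 TPM in 6-month UBR4 mKO. The 24-month values were 32.4, 51.5, 35.7 and 29.3 TPM in WT and 36.0, 17.0, 22.7 and 20.5 TPM in UBR4 mKO. In UBR4 mKO 3 of the 4 older samples lay below all younger ones, and in WT the older range lay inside the younger. The change with age was -1.19 in UBR4 mKO (SE 0.29, limma adjusted p = 0.0198), against -0.27 in WT (SE 0.29, limma adjusted p = 0.456). At 24 months UBR4 mKO differed from WT by -0.65 (SE 0.29, limma adjusted p = 0.444).

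Kera (chr10:97606879-97613692, plus strand), a keratan sulphate proteoglycan, had 2.55, 4.60, 11.6 and 6.87 TPM in 6-month WT and 5.65, 3.72, 9.89 and 5.17 TPM in 6-month UBR4 mKO. At 24 months it had 2.19, 4.22, 1.99 and 2.49 TPM in WT and 4.93, 0.729, 1.56 and 1.07 TPM in UBR4 mKO. UBR4 mKO replicate 1 reached into the younger range, whereas the other three lay below it. The change with age was -1.79 in UBR4 mKO (SE 0.49, limma adjusted p = 0.0367) and -1.06 in WT (SE 0.49, limma adjusted p = 0.103).

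Chad (chr11:94565047-94569127, plus strand), a leucine-rich repeat protein without the glycosaminoglycan chains of the proteoglycans, had 5.63, 7.46, 18.5 and 8.02 TPM in 6-month WT and 4.50, 5.56, 15.5 and 10.1 TPM in 6-month UBR4 mKO. At 24 months it had 4.45, 11.9, 5.51 and 3.44 TPM in WT and 4.31, 1.32, 3.28 and 2.12 TPM in UBR4 mKO. The ages did not overlap in UBR4 mKO, although only by 4.31 TPM in the highest older sample against 4.50 TPM in the lowest younger one. The change there was -1.62 (SE 0.45, limma adjusted p = 0.0412), and in WT -0.65 (SE 0.45, limma adjusted p = 0.256). Chad also had the largest difference between genotypes at 24 months, -1.13 (SE 0.45, limma adjusted p = 0.371), which was not called.

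Cilp2 (chr8:69880369-69887687, minus strand) had 1.01, 1.34, 4.53 and 2.09 TPM in 6-month WT and 2.18, 1.79, 5.24 and 2.15 TPM in 6-month UBR4 mKO. In the older mice the values were 0.287, 0.692, 0.318 and 0.507 TPM in WT and 0.329, 0.206, 0.446 and 0.440 TPM in UBR4 mKO. In both genotypes every older sample lay below every younger sample. The mean fell 4.97-fold in WT, from 2.24 ± 1.59 to 0.451 ± 0.188 TPM, and 8.0-fold in UBR4 mKO, from 2.84 ± 1.61 to 0.355 ± 0.113 TPM (SD, n = 4). The log2 changes were -1.92 in WT (SE 0.40, limma adjusted p = 0.00431) and -2.60 in UBR4 mKO (SE 0.40, limma adjusted p = 0.000784). These 2 comparisons share no sample, and their difference was not called (-0.67, SE 0.57, limma adjusted p = 0.386). Cilp2 was also called in both genotypes under all 28 limma alternatives tried, as were the falls of Tnmd and Thbs4 in UBR4 mKO. The 28 include a fit without the 4 samples with the highest values. Those samples were picked by these genes' own levels, so that fit adds no support. In bulk muscle, fewer cells of a type and less RNA per cell cannot be told apart.

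**Figure D2:**
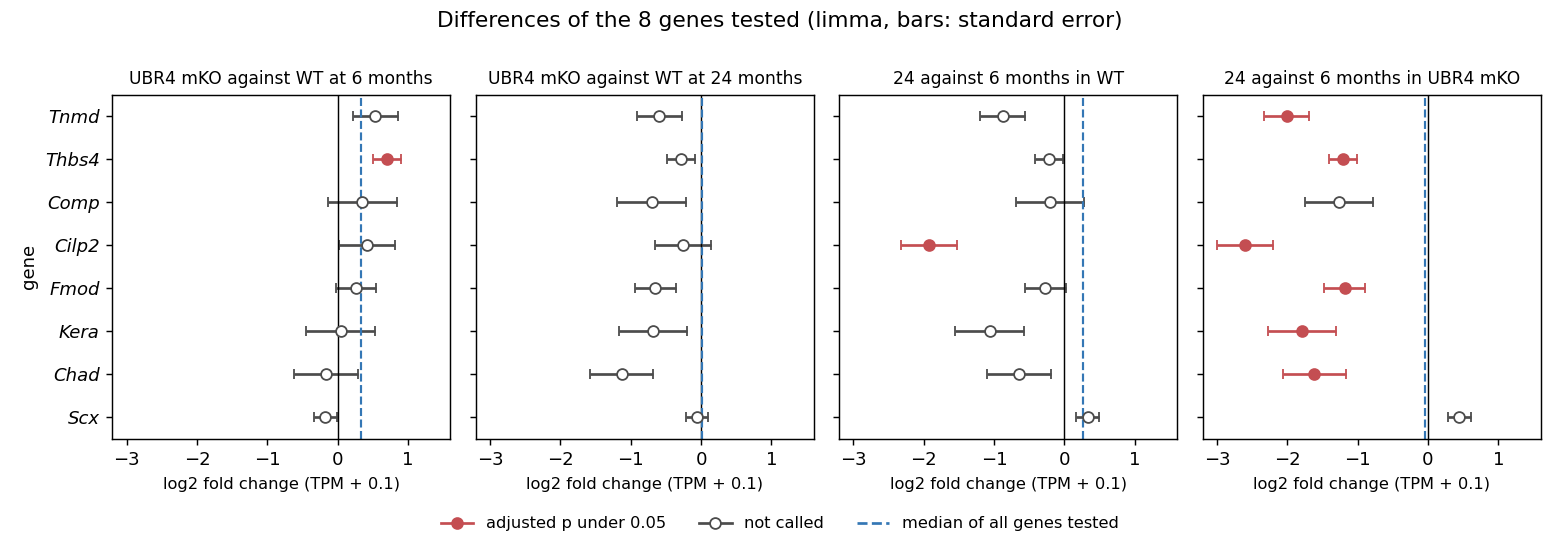
Log2 fold change (horizontal axes, on the log2(TPM + 0.1) scale) with its standard error for the 8 genes tested, in the 4 comparisons. Filled red points had a limma adjusted p under 0.05, and the dashed line marks the median of all genes tested. In UBR4 mKO 7 of the 8 genes lay below 0 with age and 6 were called.

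The 6 calls between the ages in UBR4 mKO differed in how firmly they held. Of the 28 limma alternatives, Fmod was called in 24, Kera in 18 and Chad in 17. These tallies again include the fit without the 4 samples with the highest values. Without 6-month UBR4 mKO replicate 3, without 24-month UBR4 mKO replicate 2, or without 6-month UBR4 mKO replicate 4, 3 genes were called in place of 6, namely Cilp2, Tnmd and Thbs4. Over all genes these fits called 374, 452 and 556, in the order named, against 669 in the fit of all samples. The last sample named, 6-month UBR4 mKO replicate 4, is the library with the most Xist and nearly without Ddx3y. Without it Fmod stood at -1.11 (limma adjusted p = 0.0541), Kera at -1.84 (limma adjusted p = 0.0631) and Chad at -1.5 (limma adjusted p = 0.0990).

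Within the groups the genes other than Scx moved together from sample to sample. In 24-month WT, replicate 2 was the highest of the 4 samples for 9 of 9 genes. In 6-month UBR4 mKO, replicate 3 was the highest for 8 of 9 and the lowest for Scx, and in 6-month WT, replicate 3 was the highest for 6 of 9 and again the lowest for Scx. In 24-month UBR4 mKO, replicate 1 was the highest for 7 of 9, all but Scx and Cilp2. At the other end, replicate 1 of 6-month WT was the lowest for 8 of 9, replicate 2 of 24-month UBR4 mKO for 7 and replicate 2 of 6-month UBR4 mKO for 6. After median-of-ratios scaling the 4 highest samples were highest for 9, 8, 8 and 6 genes in that order of naming.

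Once each group's mean was taken off, the log2 values of the 28 pairs of genes without Scx had Pearson correlations from 0.53 to 0.93 over the 16 samples, with a median of 0.78. Comp and Mkx were closest (0.93), followed by Fmod and Chad (0.92). The 8 pairs with Scx ran from -0.43 to -0.13. These are descriptions over samples that share libraries, and no p is attached. The deviations can be read in the map of samples and genes.

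**Figure D3:**
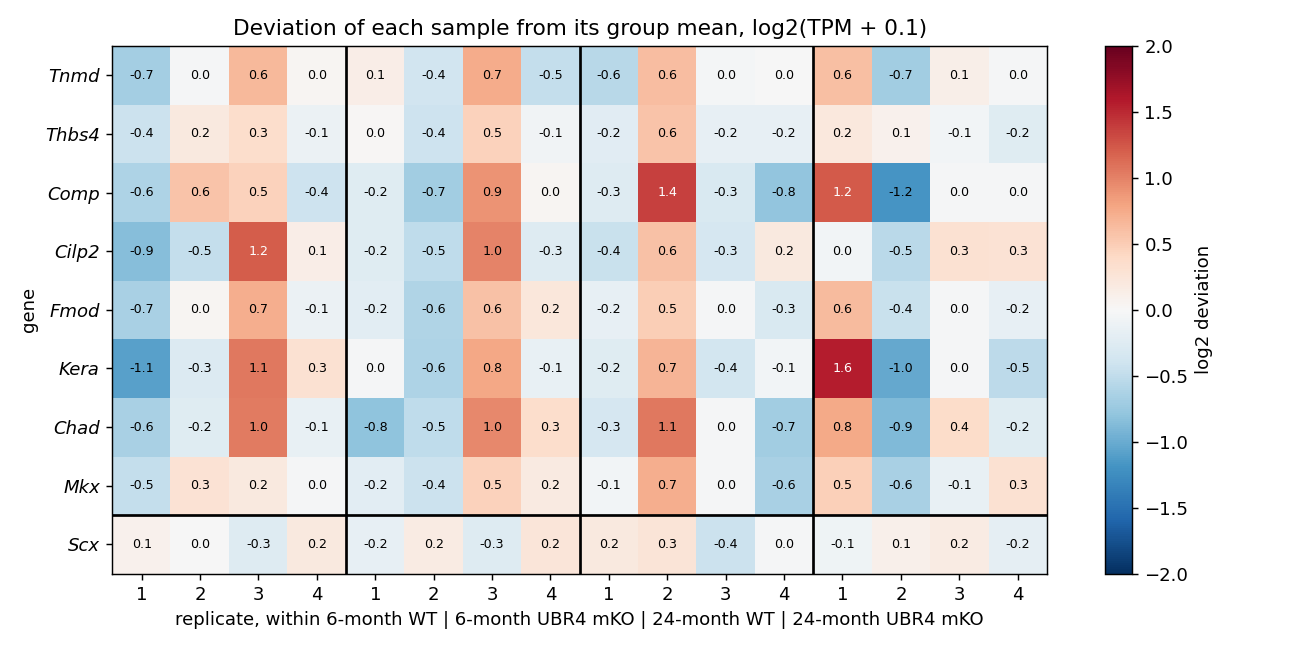
Log2(TPM + 0.1) of each sample minus the mean of its group, for the 9 genes (rows) in the 16 samples (columns, by group and replicate), red above and blue below the group mean. The columns of 6-month WT replicate 3, 6-month UBR4 mKO replicate 3, 24-month WT replicate 2 and 24-month UBR4 mKO replicate 1 are red for nearly all rows. Scx, under its own line, is red in 24-month WT replicate 2 and blue in the other three.

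The same samples were then read for other cell types. The summed interstitial fibroblast markers, 7 genes including Pdgfra and Dpt with none at 0, were 456 TPM in 24-month WT replicate 2 and 186 to 303 TPM in the other three. They were 559 TPM in 24-month UBR4 mKO replicate 1 and 309 to 375 TPM in its other three samples. At 6 months they spanned 176 to 210 TPM in WT and 239 to 311 TPM in UBR4 mKO. Summed adipocyte markers, 6 genes including Adipoq and carried mostly by Cfd, were 72.0 TPM in 24-month UBR4 mKO replicate 1 against 11.6 to 38.4 TPM in its group. They were 19.9 TPM in 24-month WT replicate 2 and 18.8 TPM in 6-month UBR4 mKO replicate 3, each the highest of its group. In 6-month WT replicate 3 they were 8.91 TPM, the lowest of its group. Across the 16 samples, with group means taken off, the standardized mean of the 8 tested genes had a correlation of 0.68 with the fibroblast sum, 0.57 with the adipocyte sum, 0.32 with the slow myofiber sum and -0.18 with the myofiber sum. With cartilage markers it was -0.24, with bone markers 0.21, with Schwann cell markers -0.048, with endothelial markers -0.026 and with leukocyte markers -0.18. With the median-of-ratios factor it was 0.0071 and with Xist 0.16. How much tendon was left on each muscle is not given in the sources used here, and its part in these values was not tested.

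The sums were also compared between groups. The fibroblast sum, which is carried mostly by Gsn and Ly6a, had group medians of 196, 284, 274 and 347 TPM in 6-month WT, 6-month UBR4 mKO, 24-month WT and 24-month UBR4 mKO. Of its 7 genes only Cd34 was called with age in UBR4 mKO, and lower (-0.77, limma adjusted p = 0.00416), and only Smoc2 in WT, higher (0.61, limma adjusted p = 0.0145), beside 24.0% of all genes called higher. After median-of-ratios scaling Smoc2 was at 0.33 (limma adjusted p = 0.184) and none of the 7 was called in WT. At 6 months 4 of the 7 were higher in UBR4 mKO than in WT, beside 43.7% of all genes. Only 1 was called there without mitochondrially encoded genes, and none after median-of-ratios scaling. The summed level of the 9 tendon genes had medians of 140, 185, 98.9 and 76.2 TPM in the same order. The slow myofiber sum, 6 genes such as Tnni1 and Myl3, had medians of 133, 104, 54.6 and 46.3 TPM. Of its 6 genes 2 were called lower with age in UBR4 mKO, beside 3.85% of all genes, Tnni1 (-1.46, limma adjusted p = 0.00106) and Myl3 (-1.14, limma adjusted p = 0.0307). In WT 2 were called lower, beside 1.07% of all genes, Myl3 (-1.26, limma adjusted p = 0.00933) and Myl2 (-1.84, limma adjusted p = 0.0134). The adipocyte sum had medians of 12.5, 12.7, 13.8 and 34.97 TPM in the same order of groups. None of the 3 adipocyte genes tested was called with age in UBR4 mKO, where Adipoq was at 1.49 (limma adjusted p = 0.0742), and 1 was called higher after median-of-ratios scaling. The endothelial sum, 5 genes, had medians of 85.2, 115, 77.0 and 84.5 TPM. With age in UBR4 mKO 3 of the 5 fell, beside 3.85% of all genes: Cdh5 (-0.71, limma adjusted p = 0.00424), Emcn (-0.57, limma adjusted p = 0.00529) and Pecam1 (-0.54, limma adjusted p = 0.0185). In WT none of the 5 was called with age, and after median-of-ratios scaling 4 were called lower in each genotype. At 6 months 3 of the 5 were higher in UBR4 mKO than in WT, beside 43.7% of all genes, and none after median-of-ratios scaling or without mitochondrially encoded genes. The bone sum, 6 genes too low to be tested, had medians of 2.81, 2.27, 0.513 and 0.416 TPM, without overlap between the ages in either genotype. Of the 8 myofiber markers 3 were called lower and 2 higher with age in UBR4 mKO, among them Myh2 (-2.13, limma adjusted p = 0.00274). Over all 10628 genes 3.85% were called lower there and 260 genes higher. In WT 2 of the 8 were called lower, among them Myh2 (-1.27, limma adjusted p = 0.0264), and 6 higher, beside 1.07% and 24.0% of all genes. After median-of-ratios scaling 2 were called lower and 1 higher with age in each genotype. The part of these markers in the tendon gene results was not tested.

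The genes whose deviations followed the tendon genes most closely, of 10049 other named genes tested, were Ccdc3 (Pearson r 0.92 over 16 samples), Igfbp6 (0.87), Cpxm2 (0.87), Hic1 (0.87), Gpx8 (0.86) and Fbln1 (0.85). Over all 10049 genes r had a median of -0.014 and a 5th to 95th percentile range of -0.33 to 0.43. Without the 2 samples farthest from the middle, 6-month UBR4 mKO replicate 3 and 24-month WT replicate 2, r was 0.87, 0.79, 0.83, 0.81, 0.76 and 0.76 in the order named. Dcn, the most abundant proteoglycan of tendon, came at rank 12 (0.83), the fibril-associated Col12a1 at 13 (0.81) and the lubricant Prg4 at 15 (0.80). Other matrix genes lay far lower, among them Col1a2 at rank 86 (0.66), Thbs2 at 91 (0.65), Lum at 152 (0.60), Thbs3 at 156 (0.60), Col1a1 at 186 (0.58), Cilp at 437 (0.45), Col3a1 at 1178 (0.28), Col22a1 at 1242 (0.27) and Thbs1 at 7756 (-0.15). None of the 6 was called between the ages in either genotype. Ccdc3, for instance, had 4.31 ± 1.25, 4.43 ± 1.73, 4.54 ± 1.44 and 3.37 ± 0.751 TPM in the groups in the order above (SD, n = 4).

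The drop of Cilp2 was then set against the other genes, a description chosen after its values were seen. The ratio of Cilp2 to Fmod TPM was 0.0362, 0.0296, 0.0626 and 0.0514 in 6-month WT and 0.0476, 0.0514, 0.0664 and 0.0351 in 6-month UBR4 mKO. At 24 months it was 0.00887, 0.0135, 0.00889 and 0.0173 in WT and 0.00915, 0.0121, 0.0196 and 0.0215 in UBR4 mKO. All 8 younger ratios exceeded all 8 older ones. Against the mean log2 level of the other tested genes apart from Scx, Cilp2 was lower by 1.38 in 24-month than in 6-month WT (means -4.20 and -2.82) and by 1.08 in UBR4 mKO (-3.78 and -2.69), without overlap in either. On the same scale, whose reference for the other genes includes Cilp2, Fmod was higher by 0.55 in WT and 0.56 in UBR4 mKO without overlap. Thbs4 was higher by 0.61 in WT, without overlap, and by 0.53 in UBR4 mKO, with overlap.

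**Figure D4:**
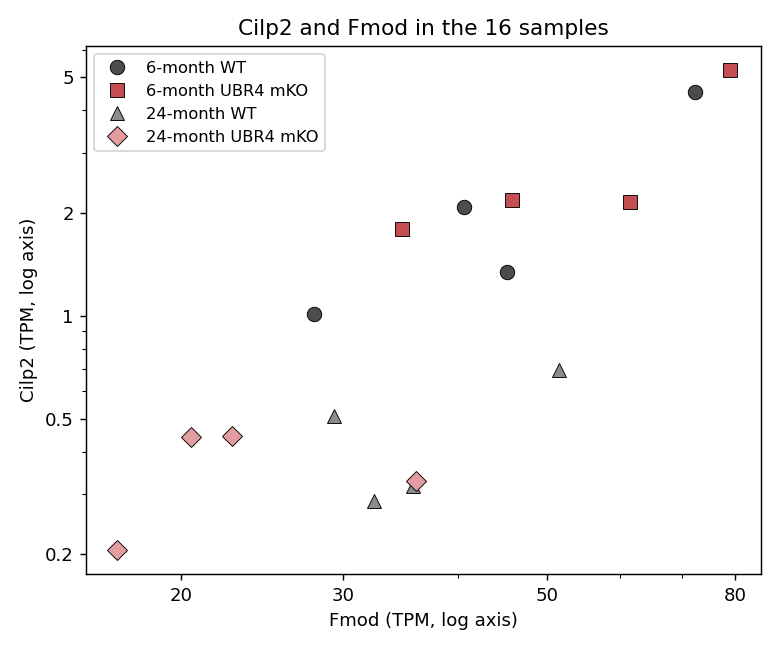
Cilp2 against Fmod, both in TPM on log axes, with 1 point per sample and shapes for the 4 groups. The 2 samples with the most Fmod had the most Cilp2, and all 8 older samples lay below all 8 younger ones in Cilp2, at overlapping levels of Fmod.

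Because these genes moved together, their promoters were read for E-boxes, the CANNTG motif bound by Scx and other basic helix-loop-helix factors. The motif is its own reverse complement, so that 1 strand covers both. RefSeq entries of GRCm38.p6, from 250 bases before to 50 bases after the start, were at hand for 6 genes, and Comp, Scx and Mkx are named only. At least 1 E-box was found in 4 of the 6 windows, 2 in Thbs4 and 1 each in Fmod, Chad and Cilp2, and none in Tnmd or Kera. Of 32851 promoters of the same 300-base length, 72.3% held at least 1. The windows of Tnmd (chrX:133850758-133851057, plus strand) as the tenocyte marker, Fmod (chr1:134037004-134037303, plus strand) and Chad (chr11:94564797-94565096, plus strand) as the pair that moved most closely among those with an entry, and Cilp2 (chr8:69887343-69887642, minus strand) as the gene that fell most are printed 5′ to 3′ on the strand of the gene, with E-boxes in capitals.
Tnmd: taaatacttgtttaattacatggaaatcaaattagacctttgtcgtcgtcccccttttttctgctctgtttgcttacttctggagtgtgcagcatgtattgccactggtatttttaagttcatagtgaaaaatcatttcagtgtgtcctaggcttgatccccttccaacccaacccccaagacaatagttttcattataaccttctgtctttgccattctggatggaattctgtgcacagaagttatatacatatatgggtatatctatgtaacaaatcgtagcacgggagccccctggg
Fmod: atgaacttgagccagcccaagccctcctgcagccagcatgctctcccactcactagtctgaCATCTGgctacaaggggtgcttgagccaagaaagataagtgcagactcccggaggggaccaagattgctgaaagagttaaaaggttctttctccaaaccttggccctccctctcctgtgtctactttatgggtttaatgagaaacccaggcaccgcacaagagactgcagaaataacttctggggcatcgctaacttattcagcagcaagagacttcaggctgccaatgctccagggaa
Chad: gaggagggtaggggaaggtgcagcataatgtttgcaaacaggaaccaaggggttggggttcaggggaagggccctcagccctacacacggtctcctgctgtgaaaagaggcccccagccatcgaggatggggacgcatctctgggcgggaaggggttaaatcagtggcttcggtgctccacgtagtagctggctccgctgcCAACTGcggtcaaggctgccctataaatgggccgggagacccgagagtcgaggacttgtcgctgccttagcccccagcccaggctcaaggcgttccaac
Cilp2: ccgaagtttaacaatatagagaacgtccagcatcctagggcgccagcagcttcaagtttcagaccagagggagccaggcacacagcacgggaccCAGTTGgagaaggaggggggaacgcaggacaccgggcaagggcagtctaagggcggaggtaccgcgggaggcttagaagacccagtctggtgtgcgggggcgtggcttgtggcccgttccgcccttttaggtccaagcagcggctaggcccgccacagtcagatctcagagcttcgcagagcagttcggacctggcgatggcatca
The Fmod and Chad windows thus share the presence of 1 E-box with different central bases, and the Tnmd window has none. A match is a string of letters and does not show that a factor binds there.

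Other genes of the tendon matrix were read from lists of related genes. After median-of-ratios scaling, the shares of all genes called higher and lower were 6.66% and 10.2% between genotypes at 6 months, 4.44% and 5.33% between ages in WT, and 5.97% and 5.3% between ages in UBR4 mKO, and the list counts under that scaling are to be read beside these. Of 16 collagens and glycoproteins of tendon and fascia, 13 were tested. With age 5 of them fell in UBR4 mKO, led by Postn (-2.26, SE 0.29, limma adjusted p = 0.000186) and Col12a1 (-1.63, SE 0.30, limma adjusted p = 0.00325), and 3 fell in WT. Over all genes 3.85% were called lower in UBR4 mKO and 1.07% in WT. In WT these were Postn (-1.65, limma adjusted p = 0.00145), Col1a1 (-1.91, limma adjusted p = 0.0106) and Col1a2 (-1.53, limma adjusted p = 0.0131), the last pair being the chains of type I collagen. The list median was -0.70 in UBR4 mKO and -0.11 in WT, where median-of-ratios scaling gave -0.39 with 4 called lower. At 6 months 6 of the 13 were higher in UBR4 mKO than in WT, beside 43.7% of all genes, led by Col5a2 (1.10, limma adjusted p = 0.00231), and 3 after median-of-ratios scaling. None was called between genotypes at 24 months.

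Of 10 small leucine-rich proteoglycans other than Fmod and Kera, 7 were tested. At 6 months, beside the same 43.7% of all genes, 5 were higher in UBR4 mKO, led by Bgn (0.91, limma adjusted p = 0.00487) and Lum (0.83, limma adjusted p = 0.00692), and none after median-of-ratios scaling. None was called with age in either genotype, where the median was -0.19 in UBR4 mKO and 0.21 in WT, the latter turning to -0.056 after median-of-ratios scaling. That scaling called 1 of the 7 lower with age in each genotype, beside 5.33% of all genes in WT and 5.3% in UBR4 mKO, which was Aspn in both (-0.46 in WT, limma adjusted p = 0.0405, and -0.47 in UBR4 mKO, limma adjusted p = 0.0338). Fmod, with its fall in old UBR4 mKO muscle, belongs to the same protein family.

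Cilp, the paralogue of Cilp2, moved in opposite directions with age in WT and UBR4 mKO. Cilp had 7.67 ± 2.67, 28.7 ± 8.97, 20.5 ± 5.63 and 12.1 ± 2.37 TPM in 6-month WT, 6-month UBR4 mKO, 24-month WT and 24-month UBR4 mKO (SD, n = 4). It was higher at 24 than at 6 months in WT (1.43, SE 0.25, limma adjusted p = 0.00115) and lower in UBR4 mKO (-1.21, SE 0.25, limma adjusted p = 0.00656). At 6 months it was higher in UBR4 mKO (1.91, SE 0.25, limma adjusted p = 7.4e-05), and each of these calls held after median-of-ratios scaling. Of the 5 paralogues tested, Thbs3 (0.73, limma adjusted p = 0.0130) and Thbs1 (0.72, limma adjusted p = 0.0489) were also higher in UBR4 mKO at 6 months, beside 43.7% of all genes called higher. After median-of-ratios scaling only Cilp of the 5 was called there. Cilp was the only one called with age.

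Of 11 regulators of tenocytes, 9 were tested. Gdf5, a growth factor of joints and tendon, was higher at 24 than at 6 months in WT (3.52, SE 0.32, limma adjusted p = 3.3e-06), where Tgfbr1 (0.81, limma adjusted p = 0.00295) and Tgfb2 (0.42, limma adjusted p = 0.0324) were the others called, beside 24.0% of all genes called higher. Tgfb2 was not called after median-of-ratios scaling. In UBR4 mKO Gdf5 was the only one called with age (1.09, SE 0.32, limma adjusted p = 0.0494), and without mitochondrially encoded genes its limma adjusted p was 0.0551. At 6 months Tgfb1 (0.79, limma adjusted p = 0.00163), Gdf5 (1.09, limma adjusted p = 0.0130) and Tgfbr2 (0.41, limma adjusted p = 0.0307) were higher in UBR4 mKO, beside 43.7% of all genes. After median-of-ratios scaling 3 of the 9 were lower and none higher at 6 months.

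On the myofiber side of the junction all 11 genes of the list were tested. At 6 months 9 were higher in UBR4 mKO, beside 43.7% of all genes, led by the stretch-responsive Ankrd1 (2.17, limma adjusted p = 2.65e-05) and the laminin receptor subunit Itga7 (0.84, limma adjusted p = 7.4e-05). After median-of-ratios scaling 5 of the 11 were higher, beside 6.66% of all genes. Between ages 6 were higher in WT, beside 24.0% of all genes, led by Ankrd1 (2.17, limma adjusted p = 3.4e-05), with 2 higher and 1 lower after median-of-ratios scaling. In UBR4 mKO Col22a1, the collagen confined to the junction, was the 1 gene of 11 called with age, lower, beside 3.85% of all genes, and median-of-ratios scaling also called the talin gene Tln2 lower (-0.41, limma adjusted p = 0.0282). Col22a1 had 2.63 ± 0.519, 4.18 ± 0.107, 2.97 ± 0.435 and 1.97 ± 0.428 TPM in the groups in the order above (SD, n = 4). It fell in UBR4 mKO by 1.07 on the log2 scale (SE 0.16, limma adjusted p = 0.000736).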

How the data were processed

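Libraries of tibialis anterior RNA were sequenced as paired reads. The authors trimmed and filtered them, aligned them to GRCm38 (mm10) with CLC Genomics Workbench, and deposited 1 table of TPM values for the 16 samples, summing to 1e+06 in each. The labels name a stranded kit and the methods an unstranded one, so whether counting used strand is not given. The study describes its RNA samples as single muscles of independent mice, with another number per group than deposited, and the labels do not say, so p-values measure the spread between these samples. Log2(TPM + 0.1) of the 10628 genes with a mean of at least 1 TPM was fitted with limma 3.58.1 in R 4.3.3 (1 coefficient per group, variance trend, Benjamini-Hochberg over all genes, threshold 0.05) and checked on simulated data. The pseudocount understates changes of low genes. Mkx had an exact permutation test (SciPy 1.17.1). Positions are GENCODE on GRCm38, and near-identical transcripts were sought with minimap2 2.31. All 9 genes were named. From each list at most 3 called genes per comparison, by adjusted p, and the 6 genes most alike were named. The genes and lists were chosen with earlier results of these data known. The ranks of Dcn and of other matrix genes among the genes most alike, and the ratio of Cilp2 to Fmod, were chosen after their values were seen. Alternatives were other pseudocounts, filters, scalings, variance models, a replicate block, Dunn's test and each sample left out. A fit without the 4 samples with the highest values was added after the data had been seen.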

Additional observations from a re-analysis of the deposited data

Results flagged for a closer look

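A sample was marked where its gap to the nearest of the 4 in its group, on the log2 scale, exceeded Dixon's critical share of the range for 4 samples. Among 80 groups of values tested 3 were marked, and chance marks about 1 in 20. Thbs4 in 24-month WT replicate 2 was 71.1 TPM, beside 41.1 to 42.8 TPM in the other three. The summed tendon genes were 170.0 TPM in the same sample. Summed cartilage markers were 0.426 TPM in 24-month UBR4 mKO replicate 4, below the rest of its group.

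The change with age differed between genotypes, by the interaction in limma, for 6 of the 45 related genes tested and for none of the 8 tendon genes, beside 4.7% of all genes, where 487 of the 500 calls were lower. Of the 8 myofiber, 6 slow myofiber and 6 Schwann cell markers 2, 1 and 1 were called too. Among the related genes the difference was -2.65 for Ankrd1 (adjusted p = 0.000597), -1.25 for Col22a1 (adjusted p = 0.00828), -0.87 for Vcl (adjusted p = 0.0354), -2.64 for Cilp (adjusted p = 0.000597) and -2.42 for Gdf5 (adjusted p = 0.00828), on the log2 scale. The sixth, beyond the 3 named per list, was Itgb1 at -0.59 (adjusted p = 0.0379). After median-of-ratios scaling Vcl was at -0.54 (adjusted p = 0.101) and Itgb1 at -0.26 (adjusted p = 0.152), neither called, and Ankrd1, Col22a1, Cilp and Gdf5 were still called, with 211 of all genes.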

How the results depend on the processing

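The main counts of genes called were 1 (genotype, 6 months), 0 (genotype, 24 months), 1 (age, WT), 6 (age, UBR4 mKO) and 0 (interaction). For genotype at 6 months the count was 0 with median-of-ratios scaling, 0 without mitochondrially encoded genes, 2 with array weights and 0 with Dunn's test. For age in WT it was 2 with median-of-ratios scaling, 3 with array weights, 2 when only the 2 groups compared were fitted and 0 with Dunn's test. For age in UBR4 mKO it was 0 with Dunn's test, which called 0 of all genes there (1132 at an unadjusted p under 0.05), 5 with no variance trend, and 4 with no filter, robust trend, array weights or only the 2 groups. For the interaction it was 1 with array weights. Array weights called 6814, 6531, 1743 and 2861 of all 10628 genes in these 4 comparisons, against 4767, 2669, 669 and 500 in the fit as reported. Genotype at 6 months had 1790 calls over all genes with median-of-ratios scaling and 1586 of 10615 without mitochondrially encoded genes. Age in WT had 1038 with median-of-ratios scaling and 2504 with only the 2 groups. Age in UBR4 mKO had 620 with no variance trend, 843 of 21223 with no filter, 640 with robust trend and 439 with only the 2 groups. Leaving out each sample in turn gave 1 to 1, 0 to 0, 1 to 2, 3 to 7 and 0 to 1 genes. Over all genes the same fits called 2737 to 6239, 8 to 66, 974 to 4973, 374 to 774 and 187 to 2491. In WT Tnmd made the second call without any of 6 samples (6-month WT replicate 1, 6-month UBR4 mKO replicate 3, 24-month WT replicate 2, and 24-month UBR4 mKO replicates 1, 2 and 3), and Scx without 24-month WT replicate 3. The cause was not tested.

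Signs turned only for differences that were not called. At 6 months Fmod was -0.089 and Kera -0.30 with median-of-ratios scaling, and Kera -0.21 without mitochondrially encoded genes. Leaving out 1 sample, Kera at 6 months ran from -0.32 to 0.40, Chad at 6 months from -0.48 to 0.18, Scx at 24 months from -0.20 to 0.035, Comp with age in WT from -0.66 to 0.056 and the Scx interaction from -0.024 to 0.21. Scx at 24 months was 0.065 without the 4 samples with the highest values. These were picked by these genes' own measured levels once the data had been seen. That fit is therefore no support, also where it is included in the tallies of limma alternatives.

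Replicate numbers did not pair the samples. Of 24 same-numbered pairs 4 had a correlation over 0.1, and 7 of 24 were closest to their own number. With the replicate number as a block the counts of tendon genes called were 1, 0, 1, 6 and 0, and those of all genes 4236, 38, 2023, 532 and 284. Of the 6 genes most alike, 4 stayed among the first 6 with a pseudocount of 1. TPM gives no depth, which limits what can be said of Mkx and of Cilp2 at 24 months.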

Other observations

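Leukocyte markers summed to 1.04 to 1.14 TPM in 6-month WT and 3.62 to 16.3 TPM in 6-month UBR4 mKO. They summed to 2.52 to 6.00 TPM in 24-month WT and 5.48 to 21.3 TPM in 24-month UBR4 mKO. Of the list 2 genes were tested. At 6 months Cd68 differed between genotypes by 2.77 on the log2 scale (SE 0.43, limma adjusted p = 0.000287) and Adgre1 by 2.01 (SE 0.53, limma adjusted p = 0.00785), beside 43.7% of all genes called higher. Both were also called after median-of-ratios scaling, beside 6.66%. With age in WT 1 of the 2 was called higher, beside 24.0% of all genes, and neither was called in UBR4 mKO. Neither was called between genotypes at 24 months. Schwann cell markers summed to 30.7 to 43.8 TPM over all 4 groups. Among them Ncmap was higher in UBR4 mKO than in WT at 24 months (0.95, limma adjusted p = 0.0213), beside 0.63% of all genes called. With age in WT Ncmap was lower (-0.87, limma adjusted p = 0.00265) and Mbp higher (0.35, limma adjusted p = 0.0488), beside 1.07% and 24.0% of all genes.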
